A study of Homo sapiens with 6 samples.

Results

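The Hedgehog pathway genes described here are 10 genes taken by name, and all 10 had reads in every library of a table of 56638 genes. They encode the secreted ligands SHH, IHH and DHH, the receptor PTCH1, the signal transducer SMO, the co-receptor GAS1, the decoy receptor HHIP, and the transcription factors GLI1, GLI2 and GLI3. The cells were G401, a malignant rhabdoid tumor line with SMARCB1 deficiency, kept for 3 days in DMSO or in 3 μM MAK683, which binds the EED subunit of PRC2. Chromatin from each treatment gave 1 H3K27me3, 1 H3K4me3 and 1 input library, the last sequenced with no antibody. All samples thus share one cell line and one time point. With 1 library per group there was no replicate check, no test between treatments was possible, and every interval given is an exact 95% interval that covers counting error only.

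In the absence of ligand, PTCH1 holds SMO inactive, and the GLI factors are kept from activating transcription, with GLI3 largely processed to a repressor. Ligand binding relieves this block, and the activated GLI factors turn on target genes that include PTCH1, HHIP and GLI1 themselves, so that the pathway feeds back on its own receptor and decoy receptor. H3K27me3 is the repressive modification laid down by PRC2, and H3K4me3 marks the start sites of active or poised genes. Genes that carry both are called bivalent, and many developmental regulators are of this kind in stem cells.

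The libraries held 13308099 to 21281877 reads assigned to genes, so 3 reads correspond to 0.141 to 0.225 CPM (read counts scaled to the library total). SMARCB1, whose loss defines the line, had 0 input reads in both treatments. Of the 56638 genes, 19745 had no input read in DMSO and 19589 had none in MAK683. The deposited counts carry no spike-in scaling, and values below are CPM, so that they compare genes within the reads of each library and say nothing of total H3K27me3 or H3K4me3 in the cells. Level over input is the log2 ratio of a modification to the input of the same treatment, in CPM with 0.05 CPM added. It is compared with 24196 genes that had at least 50 reads in both inputs together. Each count covered a whole gene, so that H3K4me3, which is narrow, was diluted in long genes such as GLI3 (303 kb) and GLI2 (257 kb) against GAS1 (3.15 kb). H3K27me3 confined to part of a gene would be diluted likewise.

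The 10 genes fell into separate places in the map of the 2 modifications in DMSO. SHH, IHH and GAS1 were above input in both. PTCH1, SMO and GLI1 were above input in H3K4me3 and below it in H3K27me3. GLI2 and GLI3 were above input in H3K27me3 alone. HHIP was below input in both over its counted span, which may leave out its start, and DHH had too few reads to be placed.

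**Figure D1:**
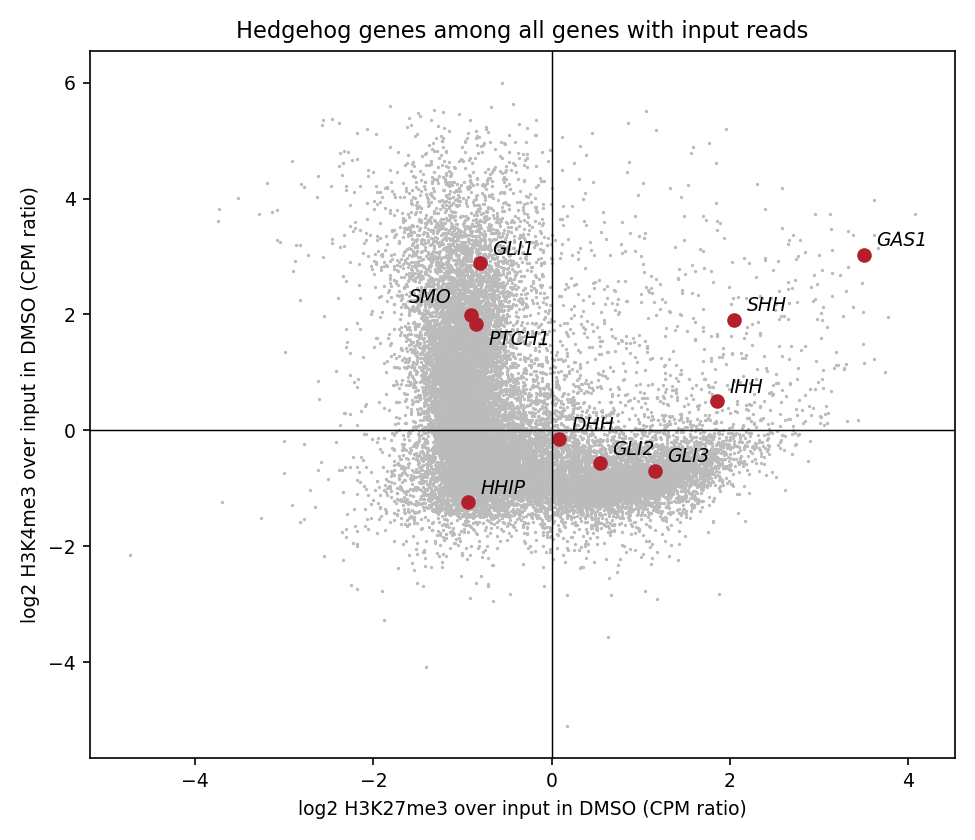
Level over input in DMSO for all 24196 genes (grey points) and the 10 Hedgehog genes (red points), with log2 H3K27me3 over input on the horizontal axis and log2 H3K4me3 over input on the vertical axis, both as CPM ratios. GAS1, SHH and IHH lie in the sparse upper right region where both values are above 0, whereas GLI1, SMO and PTCH1 lie in the dense upper left arm.

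The start sites of the genes that carry these contrasts are shown on GRCh37, the same build as hg19, as the 250 bases upstream of the MANE Select transcript start, read on the strand of the gene. They are given because CpG-rich start sites are where PRC2 and H3K4 methyltransferases are commonly found, and CpG dinucleotides are in capitals. GAS1 and IHH stand for CpG-rich genes with H3K27me3, SHH for a gene with fewer CpG and H3K27me3, and SMO for a CpG-rich gene without it. GAS1 (chr9:89562422-89562671, minus strand) holds 21 CpG, IHH (chr2:219925644-219925893, minus strand) 29, SHH (chr7:155605158-155605407, minus strand) 7 and SMO (chr7:128828224-128828473, plus strand) 25.
GAS1: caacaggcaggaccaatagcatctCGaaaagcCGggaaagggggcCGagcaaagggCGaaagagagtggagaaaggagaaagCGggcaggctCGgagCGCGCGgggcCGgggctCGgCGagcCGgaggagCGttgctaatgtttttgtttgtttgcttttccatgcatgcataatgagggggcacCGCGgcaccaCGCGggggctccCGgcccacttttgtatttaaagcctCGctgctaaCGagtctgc
IHH: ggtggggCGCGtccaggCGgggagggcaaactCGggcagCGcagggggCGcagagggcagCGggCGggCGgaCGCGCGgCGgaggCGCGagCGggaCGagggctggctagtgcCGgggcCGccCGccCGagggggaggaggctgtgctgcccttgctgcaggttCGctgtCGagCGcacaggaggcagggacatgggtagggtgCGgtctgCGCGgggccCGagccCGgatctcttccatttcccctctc
SHH: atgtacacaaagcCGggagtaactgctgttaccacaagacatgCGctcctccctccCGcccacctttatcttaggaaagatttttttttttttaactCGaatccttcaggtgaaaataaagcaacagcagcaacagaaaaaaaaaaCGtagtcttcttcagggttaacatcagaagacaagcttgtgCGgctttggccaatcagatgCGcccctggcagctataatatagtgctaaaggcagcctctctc
SMO: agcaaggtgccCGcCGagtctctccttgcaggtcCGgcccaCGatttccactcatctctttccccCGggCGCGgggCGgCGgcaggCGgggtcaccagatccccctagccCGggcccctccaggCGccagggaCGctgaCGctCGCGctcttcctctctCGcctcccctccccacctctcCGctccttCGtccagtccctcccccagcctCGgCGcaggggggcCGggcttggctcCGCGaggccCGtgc

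The number of CpG and the level of H3K27me3 did not order the genes alike. Within 1000 bases on either side of the start, GLI3 held 223 CpG, GAS1 185, IHH 173, PTCH1 165, GLI2 164, SMO 143, HHIP 132, SHH 79, GLI1 68 and DHH 64, against a median of 98 and quartiles of 54 and 136 over 17497 genes with such a transcript. GLI3, GAS1 and IHH held the most CpG of the 10 genes, and all were at least 2 times input in H3K27me3. GLI3 and PTCH1 were both above the upper quartile but differed in H3K27me3. SHH and GLI1 were both between the lower quartile and the median and likewise differed. CpG were counted around the start and H3K27me3 over the whole gene, and a relation between them was not tested. The 9-base GLI consensus GACCACCCA was searched in the same windows on both strands and was present at 314 of the 17497 genes (1.79%). Among the 10 genes it was found at PTCH1 only, on the strand opposite to the gene, with its 5′ base in gene orientation 172 bases upstream of the start. The site (chr9:98271672-98271760, minus strand, inside the annotated span of PTCH1 with no annotated exon base) is shown with the motif in capitals, as it reads on the strand of the gene. A match of these letters is not evidence that a GLI factor binds there.
PTCH1: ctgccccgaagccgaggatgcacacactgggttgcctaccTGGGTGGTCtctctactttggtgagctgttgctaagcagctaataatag

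Of the ligands, SHH, the best studied of the family, carried high levels of both modifications. SHH (chromosome 7, 155592674 to 155605157) had 803 H3K27me3, 810 H3K4me3 and 170 input reads in DMSO. In MAK683 it had 395, 782 and 225. In DMSO its H3K27me3 was 4.13 times input (log2 of 2.05, interval from 1.81 to 2.30), above 98.8% of genes, and its H3K4me3 was 3.76 times input (log2 of 1.91, interval from 1.67 to 2.16).

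IHH (chromosome 2, 219919146 to 219925643), which signals in bone and gut, was as high in H3K27me3 and lower in H3K4me3. It had 369 H3K27me3, 160 H3K4me3 and 89 input reads in DMSO, and 165, 206 and 140 in MAK683. H3K27me3 over input in DMSO was 1.86 on the log2 scale (interval from 1.53 to 2.22), which overlaps the interval of SHH, whereas H3K4me3 over input was 0.50 (interval from 0.13 to 0.90).

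DHH (chromosome 12, 49480439 to 49488584), the ligand of the gonad and peripheral nerve, gave 29 input reads in DMSO and 44 in MAK683, and the latter were 5.40 per kb against a median of 13.9 over 15783 genes. A gene with a clone name that is listed directly after DHH in the table had no read in any library, so no read was counted for it in place of DHH. Whether reads at DHH went uncounted because of it was not tested. DHH had 35 and 19 H3K27me3 reads and 33 and 42 H3K4me3 reads in DMSO and MAK683. The interval of each of its levels over input included 0, and nothing could be said of it at this depth.

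At the co-receptor GAS1, H3K27me3 over input in DMSO was the highest of the 10 genes. Its H3K4me3 over input did not differ from that of GLI1 beyond counting error. GAS1 (chromosome 9, 89559277 to 89562421), a membrane-anchored protein that helps ligand reach PTCH1, had 319 H3K27me3, 256 H3K4me3 and 24 input reads in DMSO and 185, 519 and 53 in MAK683. Its H3K27me3 was 11.3 times input in DMSO (log2 of 3.50, interval from 2.95 to 4.21), above 99.96% of genes. Its H3K4me3 was 8.19 times input (log2 of 3.03, interval from 2.47 to 3.75). With 24 reads the DMSO input is the weak term in both ratios. Taken over the sum of both inputs, its H3K27me3 was 2.95 and its H3K4me3 2.48 on the log2 scale, and GLI1 was then higher in H3K4me3, at 2.89. With a pseudocount of 1 CPM, H3K4me3 was likewise 2.43 at GAS1 and 2.78 at GLI1. Per length, where no input enters, GAS1 again had the most H3K27me3 of the 10 genes in DMSO, at 5.29 CPM per kb, followed by SHH at 3.36 and IHH at 2.96. GAS1 was also the shortest of the 10 genes, and the part of gene length in this order was not tested.

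The receptor and its transducer had the reverse pattern. PTCH1 (chromosome 9, 98205262 to 98279339) had 4214 H3K4me3, 587 H3K27me3 and 931 input reads in DMSO, and 3384, 467 and 1103 in the treated cells. SMO (chromosome 7, 128828474 to 128853386), a seven-pass membrane protein, had 1353, 163 and 269 in DMSO, and 1079, 120 and 298 after MAK683. H3K4me3 over input in DMSO, on the log2 scale, was 1.84 at PTCH1 (interval from 1.74 to 1.94) and 1.99 at SMO (interval from 1.80 to 2.19), and the 2 values did not differ beyond counting error. H3K27me3 over input was -0.85 and -0.91, near the median of all genes (-0.73).

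The 3 GLI genes were split. GLI1 (chromosome 12, 57853568 to 57866051), itself a target and an amplifier of the pathway, had 1628 H3K4me3, 112 H3K27me3 and 173 input reads in DMSO, and 1271, 80 and 200 in MAK683. Its H3K4me3 was 7.41 times input in DMSO (log2 of 2.89, interval from 2.67 to 3.13), and per length it had the most of the 10 genes, 6.13 CPM per kb. Its H3K27me3 was below input at -0.81 (interval from -1.17 to -0.46).

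GLI2, the main activator, and GLI3, the main repressor, carried H3K27me3 instead. GLI2 (chromosome 2, 121493199 to 121750229) had 5361 H3K27me3, 2770 H3K4me3 and 3245 input reads in DMSO, and 3313, 3558 and 4133 in MAK683. GLI3 (chromosome 7, 42000547 to 42303699) had 8288, 2541 and 3260 in DMSO, and 5010, 3159 and 4044 after treatment. On the log2 scale, H3K27me3 over input in DMSO was 0.54 at GLI2 (interval from 0.47 to 0.60) and 1.16 at GLI3 (interval from 1.10 to 1.22), so that GLI3 was higher beyond counting error. H3K4me3 over input was -0.57 and -0.70 over these long genes, values that do not resolve their start sites.

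HHIP (chromosome 4, 145567308 to 145666423), which binds ligand and keeps it from PTCH1, showed neither modification over its counted span. It had 600 H3K27me3, 542 H3K4me3 and 1011 input reads in DMSO, and 486, 488 and 1131 in MAK683. The antisense gene HHIP-AS1 overlaps its start, only 84.7% of HHIP is shared with no other gene in the annotation, and the library preparation as described does not mark strand, so reads at the HHIP start may be in neither count or in the other. HHIP-AS1 itself had 165 H3K4me3, 58 H3K27me3 and 25 input reads in DMSO. Both modifications thus had more reads than the input there, and the values of HHIP do not describe its start.

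In DMSO, H3K27me3 was at least 2 times input at 4 of the 10 genes (SHH, IHH, GAS1 and GLI3), against 11.4% of all genes. With median-of-ratios scaling these 10 genes again gave 4, while 4642 of the 24196 genes passed in place of 2763. H3K27me3 was above input at 6, against 28.2%, of which DHH, at 0.08, was within counting error of input. H3K4me3 was at least 2 times input at 5 (SHH, PTCH1, SMO, GAS1 and GLI1), against 24.3%, and above input at 6, against 43.2%. Both were above input at 3 (SHH, IHH and GAS1), against 3.71%, and both at least 2 times input at 2 (SHH and GAS1), against 0.901%. The median log2 over input of the 10 genes was 0.31 for H3K27me3 and 1.17 for H3K4me3, beside -0.73 and -0.26 over all genes. The lists are small and were chosen by name with earlier results of these data known, and no test of these shares was made. Within MAK683, H3K27me3 was at least 2 times input at SHH (log2 of 1.36) and GAS1 (2.33), against 7.52% of all genes, and above input at 5, against 29.5%, with IHH at 0.79, GLI3 at 0.86 and GLI2 at 0.23. H3K4me3 was at least 2 times input at 5 genes in MAK683, against 22.9%, and above it at 6, against 45.3%. Both modifications were above input at SHH, IHH and GAS1 in MAK683, against 5.62%, and both at least 2 times input at 2 of them, SHH and GAS1, against 0.98%.

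**Figure D2:**
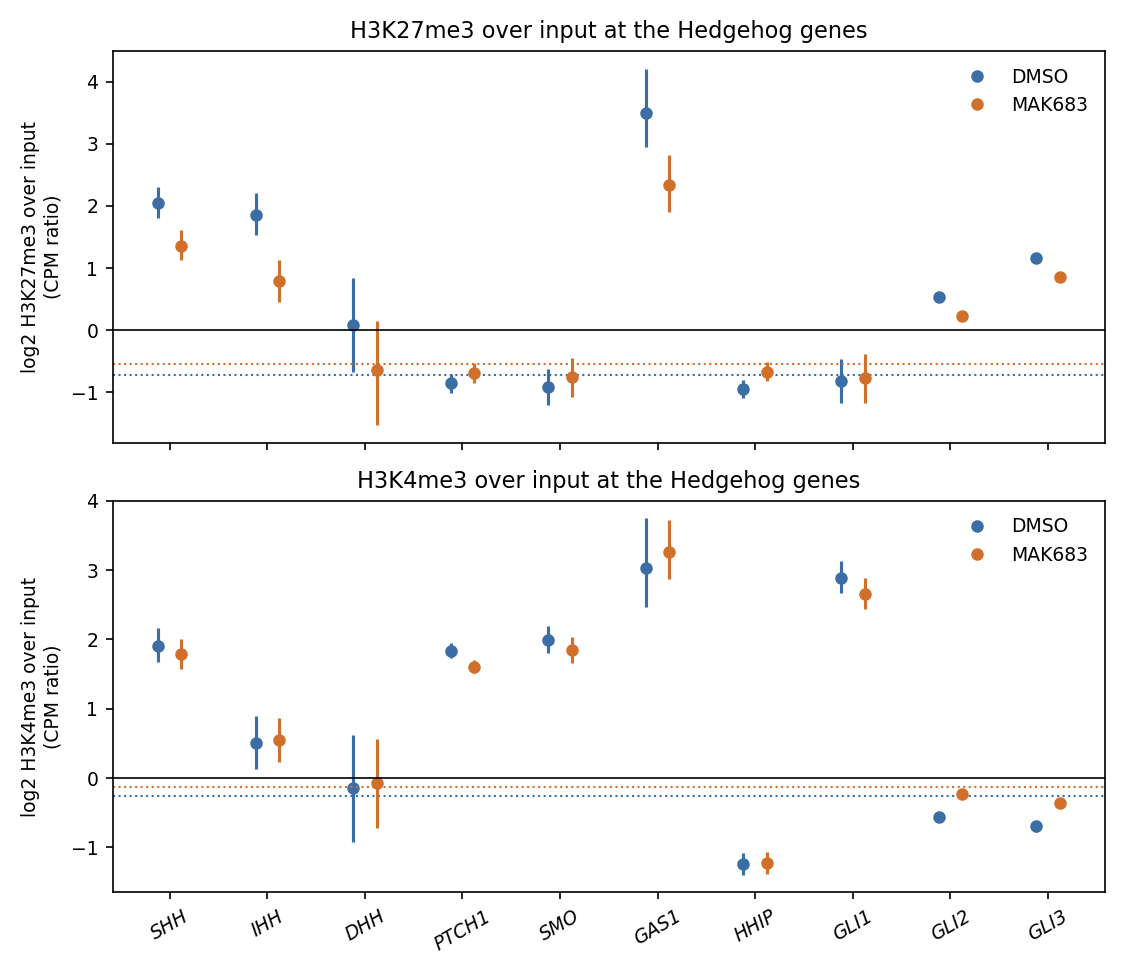
Log2 of H3K27me3 over input (top) and H3K4me3 over input (bottom), as CPM ratios, at each Hedgehog gene in DMSO (blue) and MAK683 (orange). Points are values of 1 library pair, vertical lines are exact 95% counting intervals, and dotted lines are the medians of all 24196 genes. H3K27me3 over input at SHH, IHH, GLI2, GLI3 and GAS1 is lower in MAK683 but above 0 in both treatments. At GAS1 the input, with 24 reads in DMSO and 53 in MAK683, enters this difference, and the interval of its H3K27me3 change without input included 0.

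Next, the nearest genes were examined. For each member the nearest gene on either side was taken that does not overlap it, has coordinates and has at least 50 input reads. RBM33, 18.5 kb from SHH, was at -1.07 on the log2 scale of H3K27me3 over input in DMSO, against 2.05 at SHH. On the other side the nearest such gene, RNF32 at -0.88, was 828 kb away. At IHH one side was high and the other low, with 1.71 at the lens crystallin gene CRYBA2 and -0.79 at SLC23A3.

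The neighbors of GLI2 and GLI3 were above input too, at distances from 182 kb (INHBA-AS1) to 531 kb (TCP1P1). INHBB, which encodes an inhibin and activin subunit, was at 2.19 and TFCP2L1, a pluripotency transcription factor, at 0.67 beside GLI2 (0.54). Beside GLI3 (1.16), INHBA-AS1 was at 0.50 and the pseudogene TCP1P1 at 0.48. DAPK1, a death-associated kinase that is the nearest such gene on one side of GAS1 although 550 kb away, was at 1.31, and ISCA1 on the other side at -1.59. PTCH1, SMO and GLI1 lay among genes that were all below input, from -0.62 at INHBE to -1.67 at DDIT3.

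**Figure D3:**
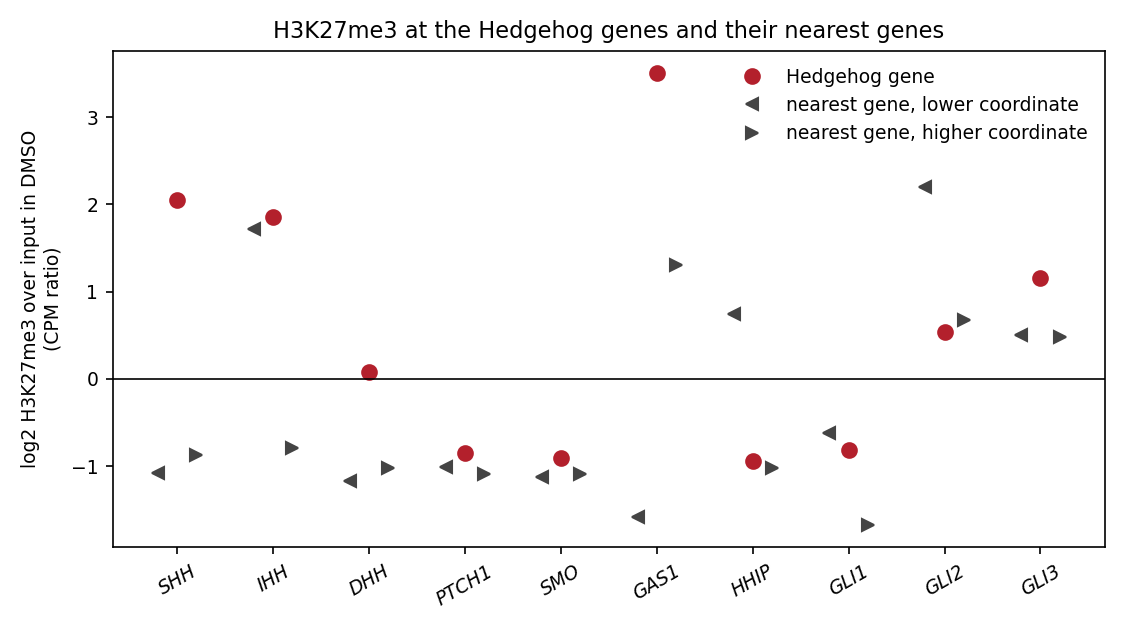
Log2 of H3K27me3 over input in DMSO, as a CPM ratio, at each Hedgehog gene (red circles) and at the nearest non-overlapping gene on the side of lower (left triangles) and higher (right triangles) coordinates. Both neighbors of SHH are below 0, whereas both neighbors of GLI2 and GLI3 are above it.

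The effect of MAK683 was then measured as the log2 ratio of MAK683 to DMSO in CPM, with 1 read added to each count. Genes with at least 10 reads in 1 of the 2 libraries were used, and all 10 genes passed for both modifications. A change of at least 1.5-fold was called. The H3K27me3 library of MAK683 was smaller than that of DMSO, and a gene that followed its library would have 41.0% of its H3K27me3 reads and 48.0% of its H3K4me3 reads in MAK683.

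H3K27me3 took a smaller share of reads in MAK683 at IHH, SHH, GLI3 and GLI2. At IHH it was 1.55-fold lower (log2 of -0.63, interval from -0.91 to -0.37), the only called decrease of the 10, against 7.25% of all genes. At SHH it was 1.41-fold lower (log2 of -0.50, interval from -0.67 to -0.32). GLI3 and GLI2 had smaller differences with narrow intervals, at -0.20 (interval from -0.25 to -0.15) and -0.17 (interval from -0.23 to -0.11). These 4 genes had intervals below the library ratio, against 13.6% of all genes, a share that depends on how many reads a gene has.

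At GAS1 the log2 ratio was -0.26, with an interval from -0.53 to 0.0058 that included no change. At DHH it was -0.32 with an interval from -1.24 to 0.49. PTCH1 and HHIP had intervals above the library ratio, at 0.20 (interval from 0.018 to 0.37) and 0.22 (interval from 0.046 to 0.40), a property shared by 22.7% of all genes. SMO (0.087) and GLI1 (0.046) had intervals that included 0.

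The scale between libraries sets the zero of these values. With the counts as deposited every H3K27me3 ratio is lower by 0.53 on the log2 scale and all 10 genes had fewer reads in MAK683. With median-of-ratios scaling every ratio is lower by 0.21, and PTCH1, SMO and GLI1 were then at -0.010, -0.12 and -0.16 and HHIP at 0.016, so that the sign at these 4 genes was set by the scale in at least 1 of the alternatives, whereas SHH, IHH, DHH, GAS1, GLI2 and GLI3 were lower under each. Both alternatives lower every ratio, so genes already below 0 had to stay there. The CPM intervals of DHH and GAS1 included 0. Over all genes, 2171 were called lower and 3494 higher in CPM, 3714 and 1969 with median-of-ratios scaling, and 10745 and 942 in the counts as deposited. The median of all 29931 genes was 0.085 in CPM, and relative to it the ratio was -0.72 at IHH, -0.58 at SHH, -0.34 at GAS1, -0.29 at GLI3 and -0.25 at GLI2.

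Genes with high H3K27me3 over input as a whole were lower in MAK683. In the 10% of genes with the highest values in DMSO, which held SHH, IHH, GAS1 and GLI3, the median log2 ratio was -0.24. Ranking by DMSO favors a decrease by itself, and in the highest 10% ranked by MAK683, which held SHH and GAS1, the median was -0.19. SHH and IHH were below both medians, GAS1 was close to the first, and GLI3 lay between them.

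H3K4me3 differed in both directions among the 10 genes. At GAS1 it was 2.19-fold higher in MAK683 (log2 of 1.13, interval from 0.92 to 1.36), the only called increase, against 10% of all genes, and 67.0% of its H3K4me3 reads were in MAK683. IHH (0.48, interval from 0.18 to 0.79), GLI2 (0.48, interval from 0.41 to 0.55) and GLI3 (0.43, interval from 0.36 to 0.51) were also higher beyond counting error, as were 19.5% of all genes. All of these carried H3K27me3 in DMSO. For comparison, all genes were ranked by their DMSO level of H3K27me3 and cut into bands of 10%. The top band, which held GAS1, IHH, GLI3 and SHH, had a median log2 H3K4me3 ratio of 0.22. The band below it, which held GLI2, was at 0.15. Higher H3K4me3 at genes with H3K27me3 was thus not particular to the Hedgehog genes.

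The genes rich in H3K4me3 without H3K27me3 were lower. The log2 ratio was -0.24 at GLI1 (interval from -0.35 to -0.13), -0.21 at SMO (interval from -0.33 to -0.093) and -0.20 at PTCH1 (interval from -0.27 to -0.13), and 21.3% of all genes had intervals below the library ratio. No member was called lower, against 4.86% of all genes. SHH, with high H3K4me3 at the outset, was at 0.066 with an interval from -0.078 to 0.21, and HHIP (-0.034) and DHH (0.46, interval from -0.23 to 1.17) also had intervals that included 0.

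With median-of-ratios scaling every H3K4me3 ratio is lower by 0.19, and with the counts as deposited by 0.12. Under both, GAS1, IHH, DHH, GLI2 and GLI3 stayed above 0 and PTCH1, SMO, GLI1 and HHIP below it, while SHH turned from 0.066 to -0.12 and -0.051. Genes already below 0 had to stay there, and the CPM intervals of DHH and HHIP included 0. Over all genes 1458 were called lower and 3016 higher in CPM, against 2766 and 1973 with median-of-ratios scaling and 2115 and 2331 in the counts as deposited.

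**Figure D4:**
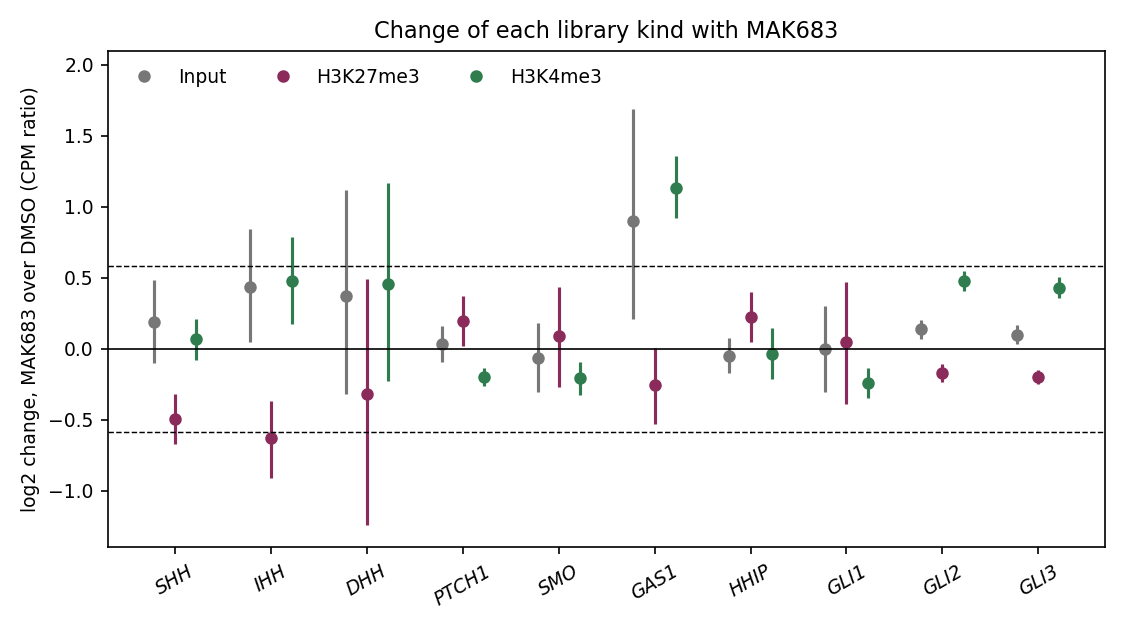
Log2 ratio of MAK683 to DMSO in CPM for input (grey), H3K27me3 (purple) and H3K4me3 (green) at each Hedgehog gene, with exact 95% counting intervals as vertical lines and the 1.5-fold limits as dashed lines. H3K27me3 at IHH lies below the lower limit, H3K4me3 at GAS1 lies above the upper limit, and the input of GAS1 is also above it.

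The input, which carries no antibody signal, moved with part of these values. The input of GAS1 was 1.86-fold higher in MAK683 (log2 of 0.90, interval from 0.21 to 1.69), the only member called, against 7.9% of all genes, and none was called lower, against 5.66%. Intervals lay above the library ratio at 4 genes (IHH, GAS1, GLI2 and GLI3), against 9.44%, and below it at none, against 7.78%. That of IHH was 1.35-fold higher (log2 of 0.43, interval from 0.047 to 0.84), and GLI2 and GLI3 were at 0.14 and 0.098. PTCH1, SMO, GLI1 and HHIP were between -0.066 and 0.031.

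Divided by the ratio of the inputs, log2 of the H3K4me3 change was 0.24 at GAS1, 0.045 at IHH, 0.34 at GLI2 and 0.33 at GLI3, and that of the H3K27me3 change -1.15, -1.07, -0.30 and -0.30. After this division the increase of H3K4me3 at GAS1 was not called and that at IHH came close to 0, whereas GLI2 and GLI3 kept most of theirs. No interval was computed for the divided values. Those of GAS1 and IHH are uncertain, since their input ratios had intervals from 0.21 to 1.69 and from 0.047 to 0.84. H3K4me3 over input was nevertheless below 0 at GLI2 (-0.57 in DMSO, -0.22 in MAK683) and at GLI3 (-0.70 and -0.36). These are shifts of a signal below input over long genes, and they do not resolve the start sites. GAS1, IHH and SHH lay in the 10% of genes with the highest GC content (from 57.1% to 74.8%), in which the median input ratio was 0.12, against -0.033 in the 10% with the lowest. Among the high-GC genes the median H3K4me3 ratio was -0.048. The part of GC content in the values of GAS1 and IHH was not tested.

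A wider list of 36 genes was then read in the same way, made of the 10 genes and 26 further ligand-processing, receptor, cilium and target genes of the pathway. It too was chosen with earlier results of these data known, and no test of its shares was made. OLIG2, a target in the ventral neural tube, had 0 reads in all 6 libraries, as did 18839 of the 56638 genes. With no input reads either, nothing can be said of its modifications. Of the other 35 genes, 3 were called lower in H3K27me3 (IHH, FOXF1 and MYCN) and 1 higher (CCND1), against 7.25% and 11.7% of all genes. In H3K4me3, 7 were called higher (GAS1, BOC, FOXF1, CCND2, MYCN, NKX2-2 and NKX6-1) and none lower, against 10% and 4.86%. The median log2 ratio over the 25 further genes with enough reads was 0.16 for H3K27me3 and -0.011 for H3K4me3, against 0.085 and 0.0039 over all genes.

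Apart from IHH, the called genes were co-receptors or target genes. BOC, a co-receptor that acts alongside GAS1, had 3598 and 1918 H3K27me3 reads and 883 and 1380 H3K4me3 reads in DMSO and MAK683. Its H3K27me3 was at 1.70 over input in DMSO, its log2 H3K27me3 ratio was -0.38 (interval from -0.46 to -0.30) and its H3K4me3 ratio 0.76 (interval from 0.64 to 0.88), with an input ratio of 0.040. The third co-receptor, CDON, was at -0.84 over input in H3K27me3, and its ratios were 0.088 and -0.087.

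Target genes that encode developmental transcription factors were not uniform. H3K27me3 over input in DMSO, on the log2 scale, was 3.05 at FOXF1, 2.88 at NKX6-1 and 2.42 at MYCN, but 0.54 at FOXL1, whose ratios of 0.34 for H3K27me3 and 0.13 for H3K4me3 both had intervals that included 0. FOXC2, with 17 and 29 input reads, had ratios of -0.020 and 0.10 and likewise intervals that included 0. FOXC2 and NKX2-2 fell short of the 50 input reads set for levels. Their H3K27me3 over input in DMSO was 2.18 (interval from 1.48 to 3.07) and 3.69 (interval from 3.05 to 4.56), so FOXL1 was the exception among these factors. MYCN went from 320 to 134 H3K27me3 reads and from 51 to 139 H3K4me3 reads. Its ratios were -0.72 (interval from -1.03 to -0.43) and 1.55 (interval from 1.09 to 2.06). It had 52 and 73 input reads, an input ratio of 0.27. Only 73.7% of MYCN is shared with no other gene in the annotation, so reads in the shared part may be missing from its counts. FOXF1, a factor of visceral mesoderm, went from 374 to 156 and from 102 to 210, with ratios of -0.73 and 1.15, beside an input ratio of 0.42. NKX6-1, a ventral neural tube factor, went from 687 to 384 and from 137 to 348, with ratios of -0.31 and 1.46.

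NKX2-2, of the same tissue, went from 261 to 160 H3K27me3 reads and from 66 to 124 H3K4me3 reads, with 17 and 27 input reads. Its H3K27me3 ratio was -0.18, with an interval from -0.47 to 0.11 that included no change. Its H3K4me3 ratio was 1.02 (interval from 0.58 to 1.48). Only 71.7% of NKX2-2 is shared with no other gene in the annotation, and the limit given for MYCN applies to it too. The cyclin genes CCND1 and CCND2 drive the cell cycle. CCND2 had an H3K4me3 ratio of 0.64, with H3K27me3 below input in DMSO (-0.38) and an input ratio of 0.32. CCND1 had an H3K27me3 ratio of 0.59 from 92 and 96 reads, beside an input ratio of 0.65 and an H3K4me3 ratio of -0.011, and its H3K4me3 over input in DMSO (3.60) was the highest of the further genes that passed the input filter. The lowest was DISP1 (-1.07), which releases ligand from the cell.

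At the cilium and cytoplasmic regulators, from SUFU to SPOP, H3K27me3 over input in DMSO was below 0 at all 10, from -1.35 at SPOP, the adaptor of a ubiquitin ligase that acts on GLI proteins, to -0.61 at KIF7, the kinesin of the cilium tip. Most genes were like this, since 17376 of the 24196 were below 0. SUFU, which holds GLI factors in the cytoplasm, was at -1.01.

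**Figure D5:**
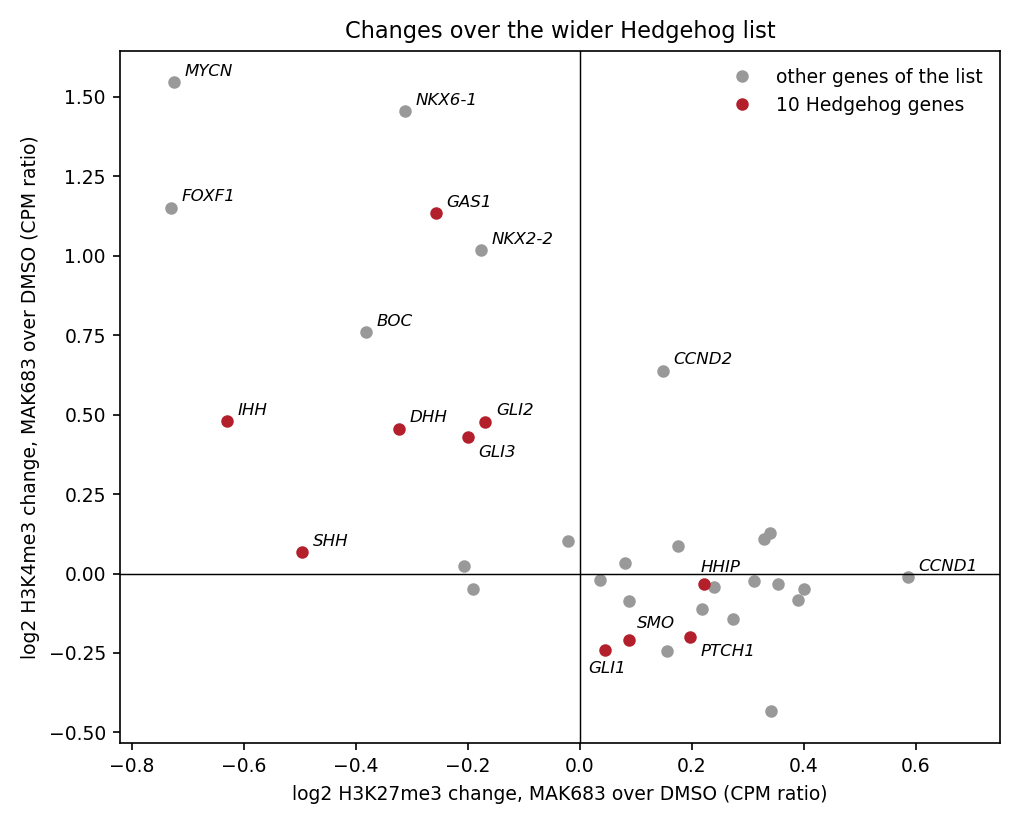
Log2 ratio of MAK683 to DMSO in CPM for H3K27me3 (horizontal axis) and H3K4me3 (vertical axis) over the 35 genes of the wider list with reads, with the 10 Hedgehog genes in red and the others in grey. Genes past a fold of 1.5 and the 10 Hedgehog genes are named, and MYCN, FOXF1, NKX6-1, GAS1, NKX2-2 and BOC lie in the upper left, lower in H3K27me3 and higher in H3K4me3.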

How the data were processed

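ChIP-seq libraries of H3K27me3, H3K4me3 and input from G401 cells were analysed, 1 per treatment and antibody. The authors trimmed reads with Trim Galore 0.4.4, aligned them to hg19 with Bowtie2, removed repeats with Picard 2.23.6 and deposited featureCounts read counts per gene. The deposited counts do not carry the Drosophila spike-in scaling that the methods describe. The gene annotation is not given in the sources used here. Symbols were matched to GENCODE release 44 on GRCh37, 33514 of 56638 (59.2%).

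CPM was computed from library totals, because the totals differed. Ratio intervals are exact Clopper-Pearson intervals of the share of reads. The change and interval computations were tested on simulated data. Python 3.11.15, numpy 2.4.6, pandas 2.3.3, scipy 1.17.1 and matplotlib 3.10.9 were used. The 10 genes, the wider list and the thresholds were chosen with earlier results of these data known. Genes named were the 10, those of the wider list past 1.5-fold or with the highest or lowest levels over input, and the nearest genes. CDON, SUFU, KIF7, FOXL1, FOXC2, OLIG2 and HHIP-AS1 were named after their values were seen. Alternatives were other scalings, pseudocounts, filters, inputs and thresholds. The values of 1 gene of the wider list are not reported here.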

Additional observations from a re-analysis of the deposited data

How the results depend on the processing

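No paired analysis was possible because each group had 1 library, and for the same reason no replicate could be left out. Of the levels over input in DMSO, the number of the 10 genes at least 2 times input stayed at 4 for H3K27me3 and 5 for H3K4me3 with a pseudocount of 1 CPM, with the sum of both inputs and with median-of-ratios scaling. Over all genes, 4642 were at least 2 times input in H3K27me3 with median-of-ratios scaling, against 2763. The number of the 10 genes called lower in H3K27me3 was 1 in CPM, 6 in the counts as deposited, 2 with median-of-ratios scaling, 4 after division by the ratio of the inputs and 0 at a fold of 2. The number called higher in H3K4me3 was 1, and 0 after division by the ratio of the inputs.

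Over all genes, those called lower in H3K27me3 numbered 2171, against 10745 in the counts as deposited, 3714 with median-of-ratios scaling, 3426 after division by the inputs, 1253 with a pseudocount of 5, 3670 with no filter on low counts, 273 with at least 100 reads and 863 at a fold of 2. Those called higher numbered 3494, against 942, 1969, 6076 with no filter, 692 with at least 100 reads and 1185 at a fold of 2. For H3K4me3, 1458 were called lower, against 2766 with median-of-ratios scaling, 2986 after division by the inputs, 3312 with no filter, 172 with at least 100 reads and 538 at a fold of 2, and 3016 higher, against 1973, 5545 with no filter, 545 with at least 100 reads and 1267 at a fold of 2. Scalings act by moving every gene by the same amount. Stricter filters and folds leave fewer genes. The cause of the differences after division by the inputs was not tested. Filters and fold thresholds cannot move the value of a gene. Under the other alternatives, 54 values of the 10 genes lay outside their counting interval, 26 of these with median-of-ratios scaling, 13 in the counts as deposited and 10 after division by the inputs. No called value of the 10 genes changed its sign. Depth limited DHH, and the input limited GAS1.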

Other observations

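The nearest genes with coordinates and at least 50 input reads held some of the larger differences seen at these loci. They were chosen for their place and not for their role, and other genes may lie between them and the Hedgehog genes. INHBB, the nearest such gene on one side of GLI2 at 384 kb, had 363 H3K27me3 reads in DMSO and 126 in MAK683, and 101 and 207 H3K4me3 reads. Its log2 ratios in CPM were -0.99 and 1.14, with 69 and 74 input reads. CRYBA2, the nearest such gene on one side of IHH at 61.0 kb, had 103 and 59 H3K27me3 reads. Its H3K4me3 reads fell as well, from 64 to 27, a log2 ratio of -1.10, beside 27 and 45 input reads. DAPK1, on one side of GAS1, had 6598 and 4162 H3K27me3 reads and 1866 and 2250 H3K4me3 reads, with log2 ratios of -0.14 and 0.39. The 2 genes with clone names listed directly before and after GAS1 in the table, which were picked once their values were known and have no coordinates here, had 1920 and 1399 H3K27me3 reads in DMSO against 772 and 613 input reads, and 1323 and 908 in MAK683.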
